A study of Homo sapiens with 17 samples.

Results

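NEAT1, MALAT1, TUG1, KCNQ1OT1, MIR17HG and DANCR are long noncoding RNAs that are retained in the nucleus or serve as hosts of small RNAs. These 6 genes were taken by symbol from the 19222 genes of a 1 h TimeLapse sequencing (TL-seq) table of HEK-293T cells, a human embryonic kidney line, and all 6 were also listed in the tables of a 2 h experiment. In the 1 h experiment, 3 libraries came from cells given 500 µM of the uridine analog 4-thiouridine (s4U) alone (untreated), and 3 from cells given s4U together with 1.8 µM emetine, an alkaloid that blocks translation elongation. The 2 remaining libraries came from cells without s4U, 1 untreated and 1 with emetine. The 2 h experiment held 3 untreated libraries, 3 with 1.8 µM and 3 with 240 µM emetine, all labeled as 250 µM s4U. TimeLapse chemistry turns incorporated s4U into apparent T-to-C conversions, so that RNA made during the hour can be told from RNA that was already there. The labels do not say whether replicates came from separate cultures, so p-values measure the spread between these libraries.

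NEAT1 is the scaffold of paraspeckles, nuclear bodies that hold RNA-binding proteins such as NONO and SFPQ, and MALAT1 gathers at nuclear speckles, which are rich in splicing factors. TUG1 is a chromatin-associated RNA first described in the retina, and KCNQ1OT1 is the antisense RNA that silences imprinted genes in cis around KCNQ1. MIR17HG is the primary transcript of the oncogenic miR-17-92 cluster, whose hairpins are cut out by Drosha in the nucleus. DANCR carries a small nucleolar RNA in an intron. Emetine acts on ribosomes, and the functions described here are those of the transcripts themselves or of the small RNAs they carry, although TUG1 is annotated as protein coding. Localization was not measured in these libraries.

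GENCODE 44 (GRCh38, the same build as hg38) places NEAT1 at chr11:65422774-65445540 and MALAT1 at chr11:65497640-65508073, both on the plus strand with a longest transcript of a single exon (22743 and 10434 bases). KCNQ1OT1 lies at chr11:2597308-2700003 on the minus strand, within KCNQ1 on the other strand, and its longest transcript is a single exon of 91667 bases. TUG1 lies at chr22:30969245-30979395 on the plus strand, is annotated as protein coding, and its longest transcript has 3 exons and 7474 bases. MIR17HG at chr13:91347686-91397592 and DANCR at chr4:52712325-52723623 are on the plus strand, with longest transcripts of 2 exons (6564 and 6065 bases). No read of these genes was marked as overlapping an exon and an intron. DANCR was the member with frequent splice junctions, found in 16.2% of its reads (13.5% to 18.3% per library). The other 5 had junctions in 0.0485% (NEAT1) to 0.868% (MIR17HG) of their reads.

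The 1 h libraries were made with an mRNA kit that selects RNA by its poly(A) tail, so the 3′ ends of the members bear on what was sampled. The last 30 bases of the longest GENCODE 44 transcript are shown for the 5 members annotated as noncoding, 5′ to 3′, with the poly(A) signals AATAAA or ATTAAA in capitals where they occur.
NEAT1: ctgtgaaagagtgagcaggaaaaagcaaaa
MALAT1: aaattagccgggcgtggtggcgtatgtctg
KCNQ1OT1: tagaaagatgaaaactatgaaaactgacta
MIR17HG: attgctacAATAAAaagtcagtggaattta
DANCR: cttttttATTAAAgtgtttgagcaaaacca
These windows lie at chr11:65445511-65445540, chr11:65508044-65508073, chr11:2608328-2608357 (minus strand), chr13:91365078-91365107 and chr4:52718736-52718765. A signal starts 22 bases from the end in MIR17HG and 23 bases from it in DANCR, and the TUG1 transcript also holds one 23 bases from its end. The windows of the 3 single-exon nuclear RNAs, NEAT1, MALAT1 and KCNQ1OT1, hold neither motif on the transcribed strand, which was the strand searched. All windows are ends of annotated transcripts, and the 3′ ends present in these cells were not measured. Of the longest transcripts of 12697 tested genes, 66.6% hold one of the motifs in this window. The 3′ ends of MALAT1 and of the long NEAT1 isoform are known to be made by RNase P rather than by polyadenylation, while the short NEAT1 isoform is polyadenylated. The table gives 1 count per gene, so the NEAT1 isoforms could not be told apart.

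MIR17HG is known for the microRNAs cut from it, and their mature sequences (RefSeq, GRCh38.p14) are shown for the arm of each of the 6 hairpins that is usually the more abundant, with the seed (bases 2 to 8) in capitals.
hsa-miR-17-5p: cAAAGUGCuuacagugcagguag
hsa-miR-20a-5p: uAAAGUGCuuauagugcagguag
hsa-miR-18a-5p: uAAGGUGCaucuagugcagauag
hsa-miR-19a-3p: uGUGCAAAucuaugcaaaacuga
hsa-miR-19b-3p: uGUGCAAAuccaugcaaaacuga
hsa-miR-92a-3p: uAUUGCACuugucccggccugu
The 6 sequences share 4 seeds: miR-17-5p and miR-20a-5p have one in common, and so do miR-19a-3p and miR-19b-3p. The hairpins lie within 91350605 to 91351391 of chromosome 13, inside a single exon in 3 of the 16 annotated MIR17HG transcripts. The longest MIR17HG transcript starts downstream of them, at position 91352334. The libraries measured the host transcript and not the mature microRNAs.

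Each library held 22246279 to 40018063 reads assigned to genes, and the 6 members took 10558 to 17247 of them, or 0.0414% to 0.0480%. Of 3 genes this line is known to express, the neurofilament gene NEFM was at 141 to 213 CPM (counts scaled to library size by the TMM method), INA, another neurofilament gene, at 16.1 to 20.8 CPM and PAX2, a kidney transcription factor, at 1.23 to 2.93 CPM in these libraries. Emetine replicate 3 differed from the rest. The SD of its deviation from its group mean across 10763 genes was 0.26 log2 units, against 0.088 to 0.10 in the untreated libraries and 0.14 and 0.15 in the other emetine libraries. The deviation rose with transcript length (Spearman's rho across genes 0.686, where genes are not independent replicates). Among the members it reached 0.45 in MALAT1 and −0.36 in DANCR, so the emetine changes of these genes are given with and without this library.

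In untreated cells, DANCR was the most abundant of the 6 RNAs, with 193, 184 and 216 CPM in replicates 1, 2 and 3. TUG1 followed with 126, 120 and 117 CPM, and MIR17HG with 56.5, 54.4 and 66.6 CPM. The DANCR and TUG1 libraries did not overlap with each other or with those of the other members. NEAT1 had 49.4, 40.4 and 51.9 CPM, below MIR17HG in each library. MALAT1 had 26.7, 24.7 and 36.4 CPM and KCNQ1OT1 8.71, 8.999 and 10.5 CPM. KCNQ1OT1 thus rested on 223 to 314 reads per library, whereas DANCR rested on 4573 to 6410. Per kilobase of the longest transcript, the untreated level was 32.6 ± 2.71 CPM for DANCR, 16.2 ± 0.588 for TUG1, 9.01 ± 0.990 for MIR17HG, 2.81 ± 0.597 for MALAT1, 2.08 ± 0.265 for NEAT1 and 0.103 ± 0.0106 for KCNQ1OT1 (SD, n = 3). On this scale MALAT1 stood above NEAT1 and KCNQ1OT1 stayed lowest. The scale depends on the transcript chosen for each member, and the forms present in these cells were not measured. Dividing NEAT1 by its short polyadenylated isoform would raise its value, and a shorter form of any other member would do the same. The order of NEAT1 and MALAT1 is therefore not settled by these values. Among the matched genes tested, with the longest transcripts as divisors, the per-kilobase level of DANCR was at percentile 82.8 and that of KCNQ1OT1 at percentile 0.725.

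**Figure D1:**
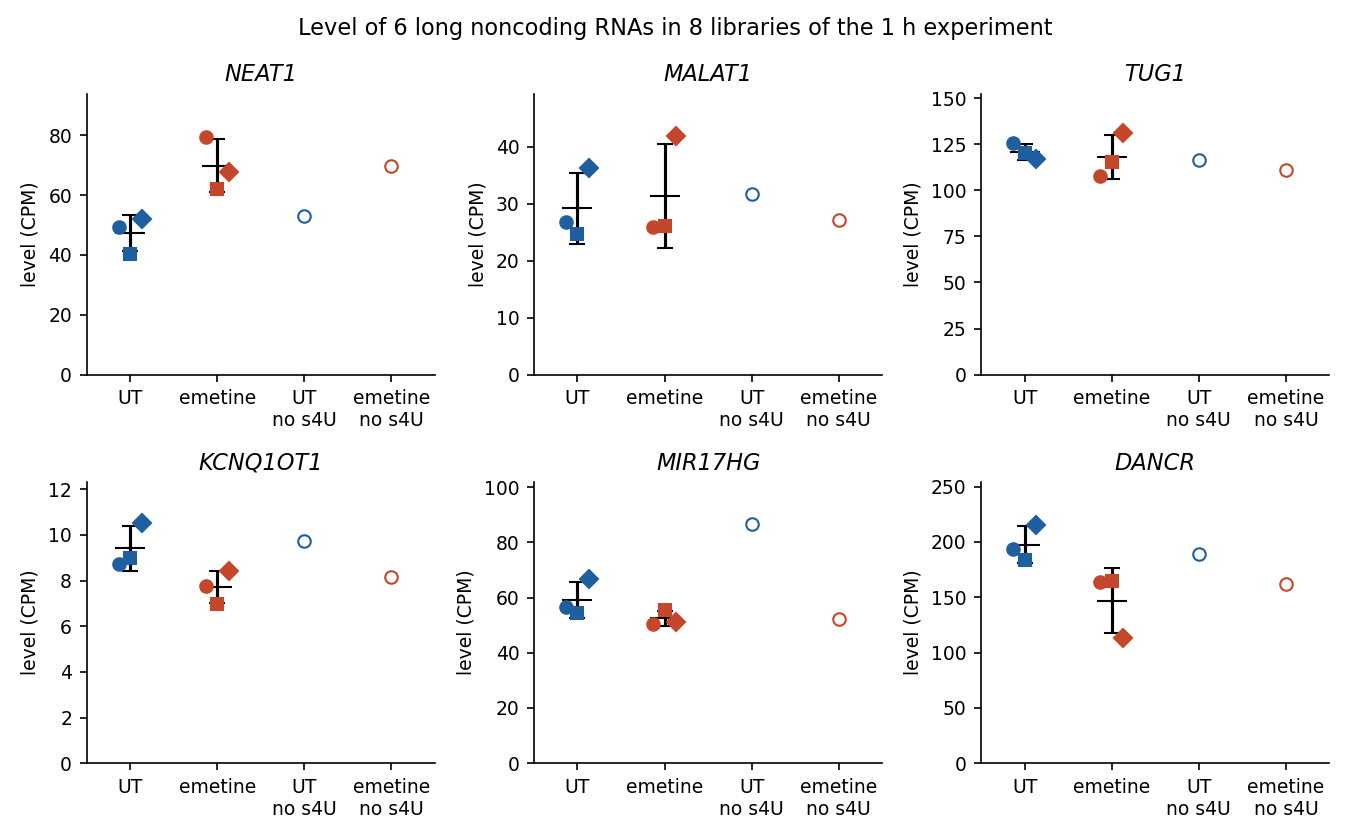
Level of each RNA in the 8 libraries of the 1 h experiment, in CPM after TMM scaling (y axis from 0). Filled circles, squares and diamonds are replicates 1, 2 and 3 with s4U, bars are mean ± SD (n = 3), and open circles are the single libraries without s4U; the emetine libraries lie above the untreated ones for NEAT1 and below them for KCNQ1OT1 and DANCR.

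The order of the members was different in the 2 h tables, whose libraries were made with a total RNA kit. Those tables give the authors' mean of normalized counts over all 2 h libraries, treated ones included, so no spread can be given. MALAT1 had the highest mean of the 6, 27487 normalized counts, and ranked 22 of 9982 listed genes. The means were 3812 for TUG1, 2832 for KCNQ1OT1, 2827 for NEAT1, 1601 for MIR17HG and 270 for DANCR. DANCR, the most abundant member in the 1 h libraries, was the least abundant here. Over the 9951 genes tested at 1 h and listed at 2 h, MALAT1 was at percentile 37.2 of the untreated 1 h level and at percentile 99.8 of the 2 h mean. KCNQ1OT1 was at percentiles 11.4 and 85.3, and NEAT1 at 53.0 and 85.3. The 3 RNAs without a poly(A) signal in the windows above had the largest upward differences between the 2 kinds of library. These 3 are also the members with the longest annotated transcripts (10434 to 91667 bases), and the levels compared here were not corrected for length. Whether either trait bears on the differences was not tested. TUG1 (80.6 and 90.3) and MIR17HG (60.6 and 70.6) differed by less, and DANCR went from percentile 89.7 to 14.5. Kit, labeling dose, time, treatment and normalization all differ between these experiments and cannot be told apart.

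**Figure D2:**
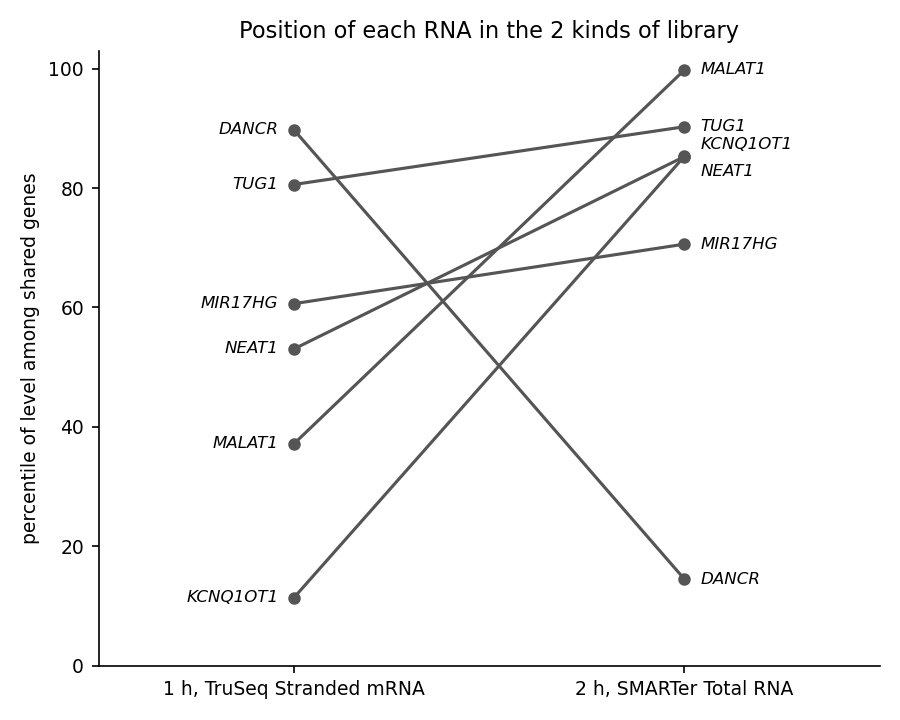
Percentile of the level of each RNA among the 9951 genes found in both experiments, from the untreated 1 h libraries (left) and from the authors' mean of normalized counts over the 2 h libraries (right). MALAT1 goes from percentile 37.2 to 99.8 and KCNQ1OT1 from 11.4 to 85.3, whereas DANCR goes from 89.7 to 14.5.

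The conversions in single reads set the members apart before any model was applied. Without s4U, at most 0.0604% of the T positions of any member were read as C (DANCR, untreated), and KCNQ1OT1 had 1 and 0 conversions in its 230 and 259 reads. With s4U, 9.20% to 9.97% of the T positions in MIR17HG reads were converted, and 4.93% to 5.83% in NEAT1. The shares for KCNQ1OT1 were 4.99% to 5.80%, in the same range as NEAT1. MALAT1 (1.93% to 2.62%), TUG1 (1.48% to 2.28%) and DANCR (1.16% to 1.93%) had lower shares. In MIR17HG, between 89.8% and 93.9% of reads held at least 1 conversion, and single reads held up to 20. One MIR17HG read of the emetine library without s4U held 11 conversions, and every other read of that library in the 6 genes held 4 or fewer.

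**Figure D3:**
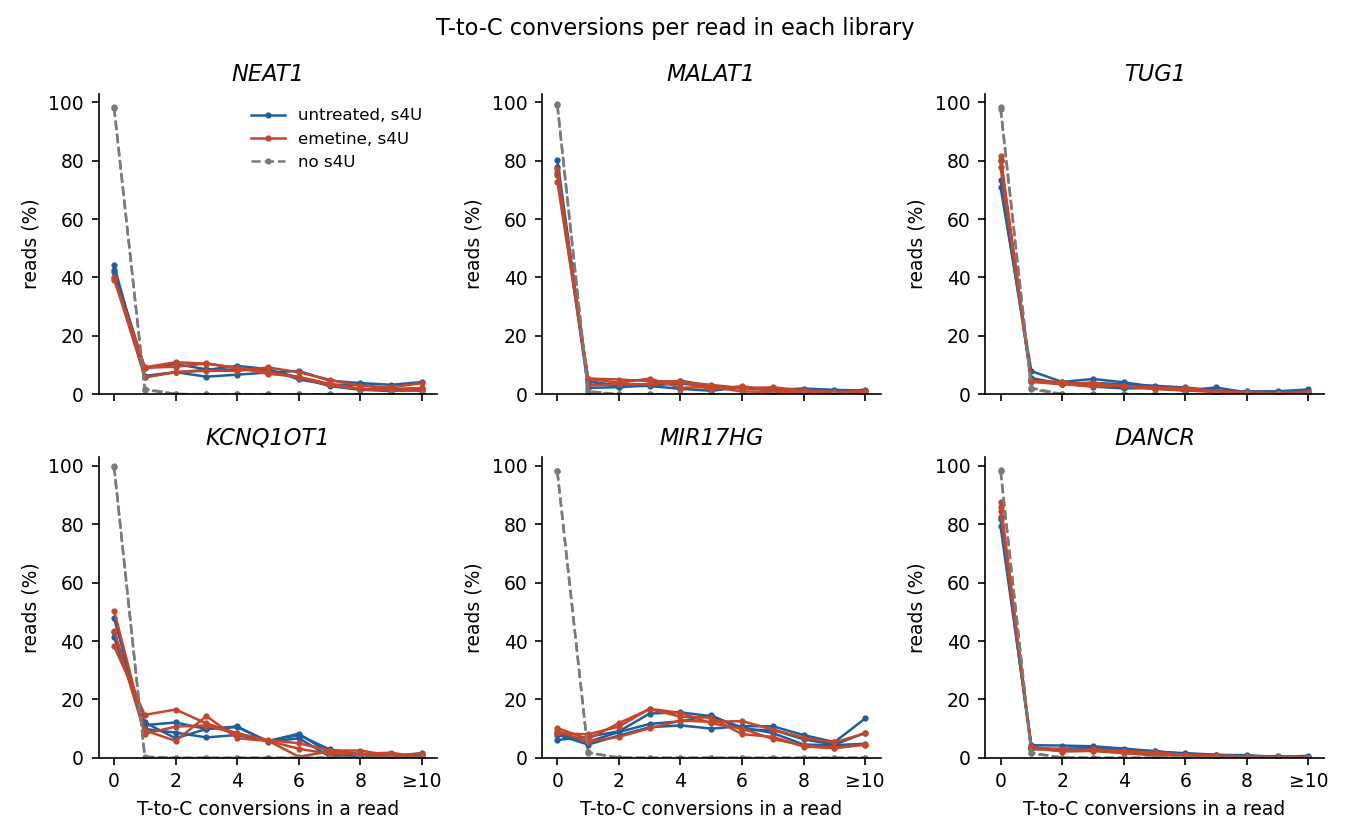
Share of the reads of each RNA (y axis, %) by the number of T-to-C conversions in a read (x axis, 10 or more pooled), 1 line per library. In MIR17HG the s4U libraries peak at several conversions per read and few reads hold none, whereas in MALAT1, TUG1 and DANCR most reads hold none, and without s4U (dashed) nearly all reads of every member hold none.

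The fraction new, the share of RNA made within the hour, was estimated for each gene and library from these conversions as the weight of new reads in a mixture of 2 binomial distributions. It describes the RNA sampled by the mRNA kit, so RNA without a poly(A) tail may be missing from the fractions and half-lives below. In untreated replicates 1, 2 and 3, the fraction new of MIR17HG was 93.4%, 93.5% and 95.9%. At a mean of 94.3% ± 1.446 (SD, n = 3), MIR17HG ranked 9 from the top among the 10763 genes that had 100 reads or more in all 6 libraries. All 3 of its libraries were above those of every other member. Under a steady state, with labeling from the start of the hour, this corresponds to a half-life of 14.5 ± 1.32 min.

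KCNQ1OT1 and NEAT1 came next. KCNQ1OT1 had a fraction new of 53.5%, 57.0% and 63.1% (mean 57.8% ± 4.83) and NEAT1 of 55.9%, 57.6% and 58.3% (mean 57.3% ± 1.23). These 2 RNAs differed by 0.524 percentage points on average (SD 3.72 over 3 libraries), less than the spread between libraries. Their half-lives were 48.5 ± 6.31 and 48.9 ± 1.67 min, and they stood at percentiles 97.0 and 96.9 of all genes. The lower read number of KCNQ1OT1 gave it wider 95% profile likelihood intervals. In untreated replicate 1 its interval was 46.8% to 60.3%, against 53.2% to 58.7% for NEAT1.

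In the RNA sampled, the 3 remaining members turned over more slowly and stood close together. TUG1 had a fraction new of 17.6%, 24.2% and 27.8% (mean 23.2% ± 5.17), MALAT1 of 17.9%, 22.4% and 23.3% (mean 21.2% ± 2.91) and DANCR of 17.05%, 16.8% and 20.8% (mean 18.2% ± 2.203). Their ranges overlapped, and TUG1 and MALAT1 differed by 1.99 percentage points (SD 2.38), whereas MALAT1 was above DANCR in each of the 3 libraries, by 2.98 points (SD 2.40). The half-lives were 164 ± 45.3 min for TUG1, 177 ± 29.6 min for MALAT1 and 209 ± 26.2 min for DANCR. All 3 means were above the median of all genes, 12.2%, at percentiles 77.5, 74.1 and 68.04. The gap between NEAT1 and TUG1 was 34.1 percentage points (SD 3.94), with no overlap between libraries. TUG1 and MALAT1 were lowest in untreated replicate 1, the library whose median over all genes was also lowest (9.26%, against 12.3% and 14.7% in replicates 2 and 3).

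**Figure D4:**
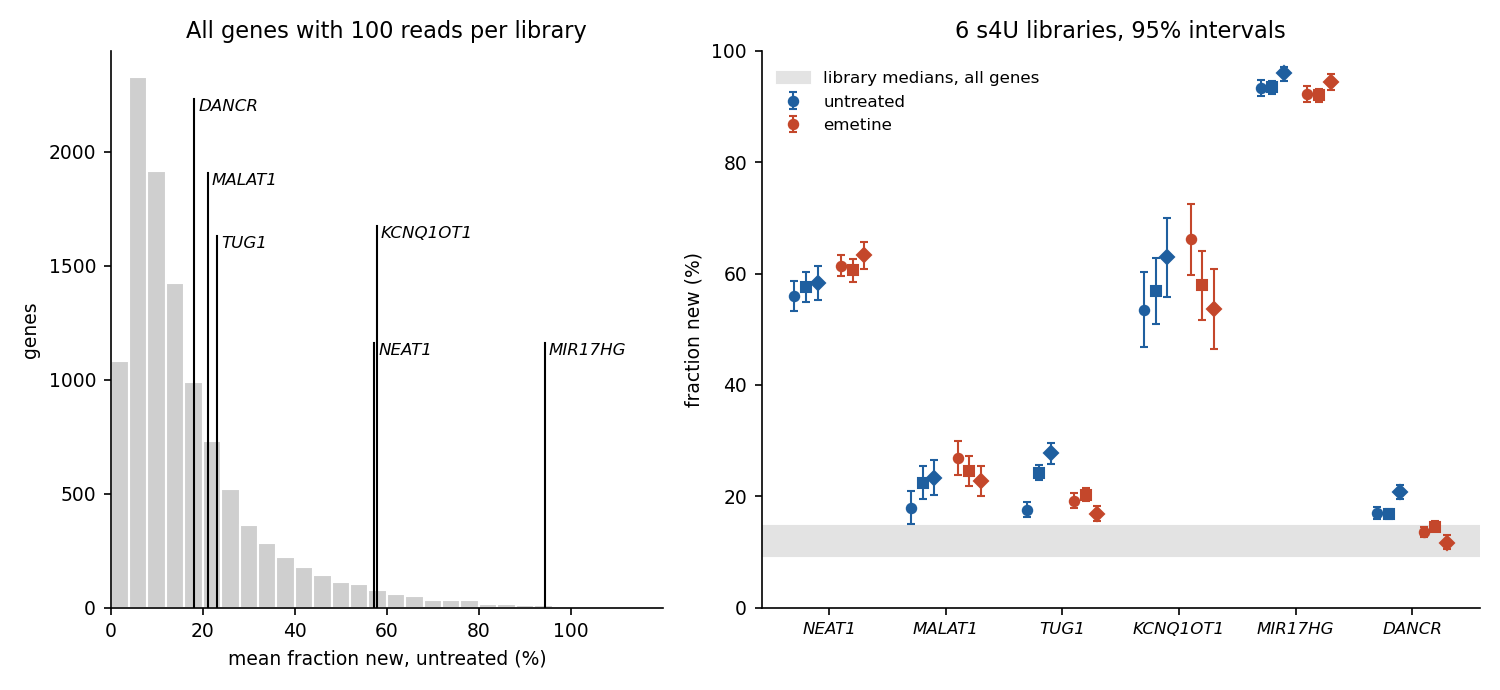
Left, number of genes (y axis) by mean fraction new in untreated cells (x axis, %, bins of 4 points), for the 10763 genes that passed the read minimum, with the 6 RNAs marked by lines. Right, fraction new of each RNA in every s4U library with its 95% profile likelihood interval, replicates 1 to 3 as circles, squares and diamonds; the gray band spans the library medians of all genes, and MIR17HG, KCNQ1OT1 and NEAT1 lie far above it in both groups.

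To find whether blocking elongation altered the amount of these RNAs within 1 h, levels were compared with edgeR's quasi-likelihood test, with p-values adjusted over the 13776 genes tested by the Benjamini-Hochberg method. None of the 6 members passed an adjusted p of 0.05, against 2.68% of all genes tested (2.64% higher and 0.0436% lower). At an unadjusted p under 0.05, 2056 genes were higher and 958 lower, NEAT1 and DANCR among them. The groups did not overlap for 3 of the 6 members, NEAT1, KCNQ1OT1 and DANCR, against 34.7% of all genes.

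NEAT1 had 49.4, 40.4 and 51.9 CPM in untreated replicates 1, 2 and 3, and 79.4, 62.2 and 67.8 CPM with emetine. Each emetine library was above each untreated library. The log2 change was 0.56 (SE 0.13, edgeR adjusted p = 0.0565, unadjusted p = 0.00171), at percentile 93.2 of the changes of all genes. The adjusted p passed the threshold without emetine replicate 3 (log2 change 0.59, edgeR adjusted p = 0.00221), without a filter on low counts (edgeR adjusted p = 0.0286) and with DESeq2's Wald test (adjusted p = 0.00600), and over all alternatives it ranged from 0.00221 to 0.244. After a smooth dependence on length and GC content was removed from the libraries, the log2 change was 0.38 (edgeR adjusted p = 0.155). The pair of libraries without s4U, which shares no sample with this comparison, had 52.9 CPM (untreated) and 69.7 CPM (emetine). Their ratio was 1.32, with a 95% Clopper-Pearson counting interval of 1.23 to 1.41, which compares these libraries and not the conditions.

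DANCR had 193, 184 and 216 CPM in the untreated libraries and 164, 164 and 113 CPM with emetine. Every emetine library was below every untreated one, and emetine replicate 3 was the lowest. The log2 change was −0.43 (SE 0.15, edgeR adjusted p = 0.170). Without emetine replicate 3 the change was smaller, −0.26, and passed the threshold (edgeR adjusted p = 0.0184). Without s4U, DANCR had 189 CPM in the untreated and 162 CPM in the emetine library, a ratio of 0.855 (counting interval 0.821 to 0.890).

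KCNQ1OT1 had 8.71, 8.999 and 10.5 CPM in the untreated libraries and 7.76, 6.99 and 8.42 CPM with emetine. The groups did not overlap, yet the log2 change of −0.29 did not pass the test (SE 0.14, edgeR adjusted p = 0.266). MIR17HG had 50.4, 55.6 and 51.2 CPM with emetine, overlapping with its untreated libraries (54.4 to 66.6 CPM), and a log2 change of −0.17 (SE 0.10, edgeR adjusted p = 0.329). For TUG1, with 108, 115 and 131 CPM in the emetine libraries and 117 to 126 CPM in the untreated ones, the log2 change was −0.03 (SE 0.097, edgeR adjusted p = 0.846). MALAT1 had 25.9, 26.2 and 41.9 CPM with emetine, against 24.7 to 36.4 CPM untreated. Its log2 change was 0.10 (SE 0.21, edgeR adjusted p = 0.799) and turned to −0.15 without emetine replicate 3, the library with 41.9 CPM. After the same correction for length and GC content, the log2 changes were −0.24 for TUG1 (edgeR adjusted p = 0.0688), −0.40 for MIR17HG (0.0812), −0.36 for KCNQ1OT1 (0.108), −0.58 for DANCR (0.0886) and −0.17 for MALAT1 (0.458), and none passed the threshold. The change of MIR17HG lay between −0.23 and −0.08 when 1 library was left out, the smaller one without untreated replicate 3. Levels scaled to library size are relative, so a change in cell number or in total RNA per cell would not show in them.

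Spike-in reads were 0.304% to 0.728% of all reads in the 8 libraries. In replicates 1, 2 and 3 their share was 0.667%, 0.480% and 0.728% untreated and 0.304%, 0.666% and 0.408% with emetine. The paper describes adding spike-ins by cell count for the 2 h libraries only. Scaling the 6 libraries by these reads moved the median log2 change of all genes from 0.03 to 0.71. The SEs of the members were then 0.46 (DANCR) to 0.49 (KCNQ1OT1). Under this scaling TUG1, KCNQ1OT1, MIR17HG and DANCR had positive log2 changes. Relative to that median, the members kept the signs of the TMM comparison, with 0.60 for NEAT1, 0.12 for MALAT1, −0.07 for TUG1, −0.28 for KCNQ1OT1, −0.20 for MIR17HG and −0.45 for DANCR. The scaling shifts all genes of a library alike, so subtracting the median largely removes it, and these signs are no separate check. None of the members passed the test under this scaling.

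Labeled reads, the CPM multiplied by the fraction new, stand for RNA made during the hour of treatment. Here DANCR passed the test. It had 32.9, 30.9 and 44.8 CPM of labeled reads in the untreated libraries and 22.2, 24.0 and 13.2 CPM with emetine. The groups did not overlap. The log2 change was −0.88 (SE 0.22, limma adjusted p = 0.0169), and DANCR was 1 of 68 genes called lower among 10763 (0.632%; 0.892% in either direction). The call was kept without untreated replicate 1 and lost without any other single library, with limma adjusted p = 0.0518 to 0.713. The change itself lay between −1.04 and −0.62, the smaller one without emetine replicate 3.

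NEAT1 had 27.6, 23.3 and 30.3 CPM of labeled reads untreated and 48.8, 37.7 and 42.9 CPM with emetine. The groups did not overlap, and the log2 change of 0.66 (SE 0.22, limma adjusted p = 0.114) was at percentile 99.5 of all genes. It passed the threshold without untreated replicate 1 (limma adjusted p = 0.0107). TUG1, with 22.1, 29.1 and 32.5 CPM untreated and 20.8, 23.4 and 22.2 CPM with emetine, had a log2 change of −0.31 (SE 0.22, limma adjusted p = 0.621) that passed only without untreated replicate 1 (−0.47, limma adjusted p = 0.0481). For MALAT1, KCNQ1OT1 and MIR17HG the log2 changes in labeled reads were 0.28 (0.13 without emetine replicate 3), −0.23 and −0.19, with overlapping groups and limma adjusted p = 0.719 to 0.808. Groups did not overlap for 2 of 6 members in labeled reads, against 14.6% of all genes.

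Unlabeled reads, from RNA that existed before the treatment, were called in 7.38% of all genes (7.28% higher and 0.0929% lower) and in none of the 6 members. NEAT1 had 21.8, 17.1 and 21.6 CPM untreated and 30.7, 24.5 and 24.9 CPM with emetine. Without overlap between the groups, its log2 change was 0.40 (SE 0.14, limma adjusted p = 0.138), and it passed the threshold without emetine replicate 3 (0.44, limma adjusted p = 0.0325). DANCR went from 160, 153 and 171 CPM to 141, 140 and 99.7 CPM, again without overlap (40.1% of all genes had none), with a log2 change of −0.36 (SE 0.14, limma adjusted p = 0.159). Without emetine replicate 3 the unlabeled change was −0.19 for DANCR (limma adjusted p = 0.0514) and −0.23 for MALAT1 (limma adjusted p = 0.268). KCNQ1OT1, MIR17HG, TUG1 and MALAT1 had log2 changes of −0.30, 0.13, 0.04 and 0.02. MIR17HG had few unlabeled reads in either group, 3.32 ± 0.551 CPM untreated and 3.72 ± 0.804 CPM with emetine (SD, n = 3), so a change in its older RNA rested on little signal.

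**Figure D5:**
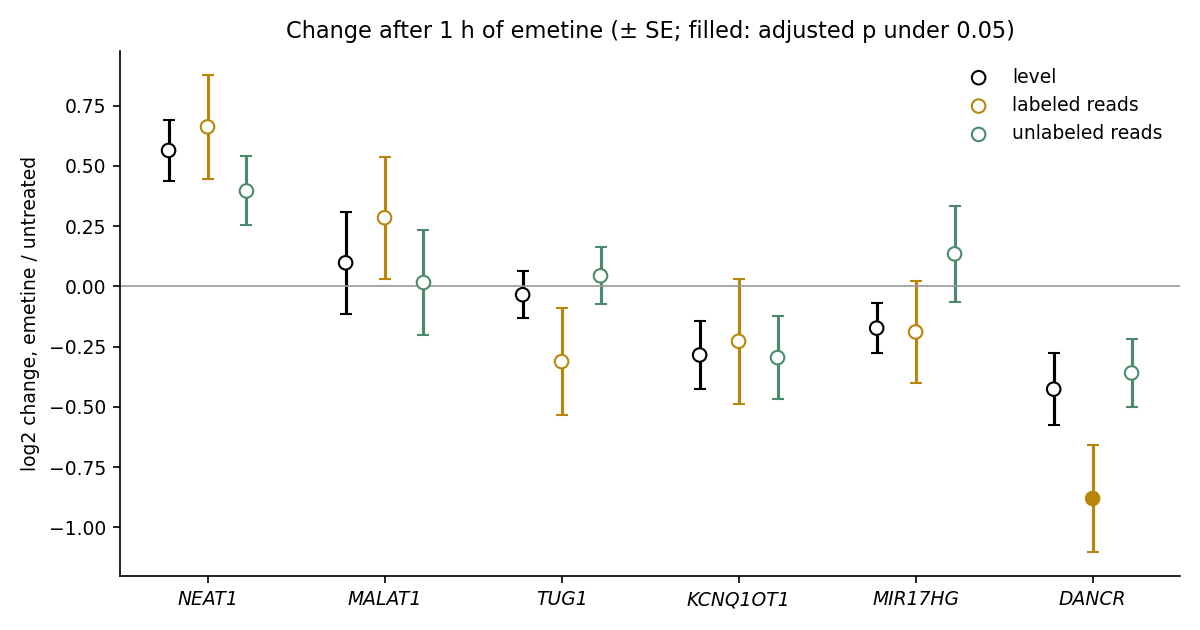
Log2 change with emetine (y axis) in level (edgeR), labeled reads and unlabeled reads (limma) for each RNA, as estimate ± SE from 3 untreated and 3 emetine libraries; a filled point has an adjusted p under 0.05 over all genes tested. The labeled reads of DANCR (−0.88) are the single filled point, and NEAT1 has positive estimates in all 3 quantities.

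The fraction new itself was called in 5.05% of all genes, 0.214% higher and 4.83% lower with emetine, and in none of the 6 members. NEAT1 had 61.4%, 60.6% and 63.3% with emetine, all above its untreated libraries (55.9% to 58.3%), and DANCR had 13.6%, 14.6% and 11.7%, all below its own (16.8% to 20.8%). These were the 2 members without overlap, against 19% of all genes. On the logit scale the changes were 0.19 for NEAT1 (SE 0.24, limma adjusted p = 0.797) and −0.37 for DANCR (SE 0.21, limma adjusted p = 0.380), beside a median of −0.16 over all genes. Without emetine replicate 3 the logit change of DANCR was −0.30 (limma adjusted p = 0.830) and that of MALAT1 0.26, against 0.20 with it. After centering every library on its own median, the logit changes were 0.31 for NEAT1 (limma adjusted p = 0.213), 0.33 for MALAT1 (0.0824), 0.19 for KCNQ1OT1 (0.4997), −0.13 for TUG1 (0.410), −0.11 for MIR17HG (0.782) and −0.25 for DANCR (0.238). MIR17HG kept the highest value of the 6, with 92.2%, 92.1% and 94.5% in the emetine libraries. Its logit change of −0.24 (limma adjusted p = 0.792) lay between −0.36 without emetine replicate 3 and −0.07 without untreated replicate 3. MALAT1 (26.9%, 24.5% and 22.7%), TUG1 (19.3%, 20.3% and 16.9%) and KCNQ1OT1 (66.3%, 57.9% and 53.7%) overlapped with their untreated libraries.

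Labeling with s4U was compared with its absence in a fit of all 8 libraries with treatment as a covariate. edgeR called 0 of 14102 genes at an adjusted p of 0.05, while 178 were higher and 495 lower at an unadjusted p under 0.05 and DESeq2's Wald test called 25. MIR17HG had the largest estimate among the members, a log2 difference of −0.28 (SE 0.13, edgeR adjusted p = 0.895). This rested on the untreated library without s4U, where MIR17HG reached 86.5 CPM, above the 54.4 to 66.6 CPM of the untreated libraries with s4U. Without that library the difference was 0.0055. The emetine library without s4U had 52.2 CPM of MIR17HG, so the ratio of that pair was 0.604 (counting interval 0.566 to 0.645). The emetine effect with s4U less that without it was 0.55 for MIR17HG (SE 0.20, edgeR adjusted p = 0.986). With 1 library in each group without s4U, the spread behind this error comes from the s4U libraries alone, and the single libraries are assumed to vary like them. No gene was called in this comparison by edgeR, with 509 higher and 88 lower at an unadjusted p under 0.05 and 6 called by DESeq2, and the other members had differences of −0.20 (DANCR) to 0.32 (MALAT1).

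Genes that act with these RNAs were taken from lists and are given by their counts. Of 24 genes for paraspeckle proteins, none was called in level, labeled reads or fraction new, and their median log2 change in level was −0.07, beside 0.03 for all genes. NONO, which binds NEAT1 in the paraspeckle core, had 1053 ± 29.9 CPM untreated and 916 ± 28.1 CPM with emetine (log2 change −0.20, edgeR adjusted p = 0.241). HNRNPK, another paraspeckle protein, had 1040 ± 53.3 and 963 ± 6.68 CPM (log2 change −0.11, edgeR adjusted p = 0.486). In unlabeled reads, 1 of the 24 was called higher, against 7.28% of all genes. This gene, RBM7, a subunit of the nuclear exosome targeting complex, was named here after its value was seen (log2 change 0.59, limma adjusted p = 0.0355). Of 18 genes for nuclear speckle proteins, where MALAT1 resides, none was called in any of the 4 quantities. The splicing factor SRSF3 had 845 ± 14.1 and 774 ± 79.1 CPM, and SRRM2, a structural speckle protein, 723 ± 8.33 and 823 ± 222 CPM.

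Among 18 genes next to the members in the genome, 17 were tested and none was called in level. In fraction new, 1 of 11 was called lower, against 4.83% of all genes. This gene, RASL11B, a small GTPase gene on chromosome 4 in the neighborhood of DANCR, had its fraction new fall from 96.2% ± 0.839 to 88.6% ± 0.740 (logit change −1.20, limma adjusted p = 0.00784). Its unlabeled reads rose (log2 change 0.88, limma adjusted p = 0.0266), and its level did not pass the test (0.24, edgeR adjusted p = 0.311). Of 12 known targets of the miR-17-92 microRNAs, 11 were tested, with a median log2 change in level of 0.18. E2F2, a cell cycle transcription factor, was the one called of the 11 (2.64% of all genes were higher): it rose from 32.9 ± 1.24 to 47.2 ± 2.69 CPM (log2 change 0.52, edgeR adjusted p = 0.0234), and it was also the one of 11 called higher in unlabeled reads, against 7.28% of all genes (0.71, limma adjusted p = 0.0354).

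Of 27 other long noncoding RNAs, none of the 17 tested was called in level, nor any of 11 in fraction new, labeled or unlabeled reads. LINC00657, also known as NORAD, had 114 ± 1.31 and 117 ± 18.1 CPM, and FGD5-AS1 78.8 ± 1.85 and 78.2 ± 10.2 CPM. Genes that host small nucleolar RNAs, a group to which DANCR belongs by structure, had a median fraction new of 53.5% in untreated cells over 20 genes, above the 18.2% of DANCR. In this list the fraction new fell in 3 of 20 genes and the unlabeled reads rose in 6, against 4.83% and 7.28% of all genes. The fraction new of SNHG12 fell from 87.6% ± 4.30 to 60.2% ± 2.60 (limma adjusted p = 3.66e-05), that of SNHG7 from 60.1% ± 4.14 to 35.3% ± 0.921 (limma adjusted p = 0.00268) and that of SNHG1 from 76.7% ± 1.93 to 55.6% ± 0.956 (limma adjusted p = 0.00984). SNHG7 was the 1 of 20 called lower in labeled reads (log2 change −0.84, limma adjusted p = 0.0177), against 0.632% of all genes. The median log2 change of the 20 there was 0.0018. DANCR was also called lower in labeled reads, a call that depended on single libraries. The unlabeled reads of SNHG1 rose (log2 change 1.41, limma adjusted p = 0.00173), whereas DANCR had a negative estimate in unlabeled reads.

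The genes whose levels followed the members most closely over the 8 libraries were found by Pearson's r of log2 CPM among genes with a mean of at least 10 CPM, as a description only, since all genes share these libraries and their depth. NEAT1 was most like CTH, an enzyme of cysteine synthesis (r = 0.972), ING3, a chromatin reader (0.966), and ZFP90 (0.961). For DANCR these were BIRC5, the apoptosis inhibitor survivin, C14orf1 and COMMD9 (each r = 0.996). MALAT1 was closest to REEP3, F11R and EFCAB14 (0.947 to 0.964), and TUG1 to VPS35, ALDH6A1 and MCFD2 (0.951 to 0.964). MIR17HG was closest to PPAP2A, LEPROTL1 and SEC62 (0.910 to 0.949) and KCNQ1OT1 to genes that include INA (0.900) and TRIP13 (0.882). DANCR and MALAT1 were the members in which emetine replicate 3 deviated most, and their r values include that library.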

How the data were processed

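The 1 h table, made by the authors with cutadapt, hisat-3n on hg38 and bam2bakR, holds deposited read counts without normalization, by gene and by number of T positions and T-to-C conversions. Per the paper, the 2 h libraries used another kit. Their deposited tables hold a signal value, the mean of normalized counts, which the authors averaged over all libraries after spike-in scaling, and the authors' fold changes and p-values, which were not used. Whether reads were counted by strand was not given in the sources used here, so KCNQ1OT1 and KCNQ1 may share reads.

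Counts were summed per gene and tested with edgeR 4.0.16 (TMM, quasi-likelihood, over 100 counts in total) in R 4.3.3. The fraction new was fitted by maximum likelihood, with the background rate from the library without s4U of the same treatment and a new-read rate per library, in Python 3.11.15 (scipy 1.17.1). Its logit, bounded at 0.001 and 0.999, and log2 labeled and unlabeled CPM plus 0.5 were tested with limma 3.58.1 (trend, robust) for genes that had 100 reads or more in all 6 libraries, so these log2 changes understate the change of low genes. All p-values are two-sided and adjusted over all genes tested. An exact permutation test of 3 libraries against 3 cannot go below 0.1. Half-lives are −ln(2) × 1 h / ln(1 − fraction new). Intervals cover counting error only, since no molecular identifiers are described. Of 19222 symbols, 17152 matched GENCODE 44, whose longest transcript gave the length and GC content of each gene. Promoter sequences were not used here.

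The members and gene lists were chosen with earlier results of these data known. Named genes are the members, up to 4 genes per list past an adjusted p of 0.05 in level or fraction new (otherwise the 2 with the most reads), and the 3 genes most like each member, of which 1 is not reported here. DESeq2 1.42.0 and mgcv 1.9.3 served for alternatives. The steps were tested on simulated data.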

Additional observations from a re-analysis of the deposited data

How the results depend on the processing

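Over 386 alternative values for single members, 348 kept the direction and the side of the threshold, 7 passed it and 5 no longer did, all given in the report, and 26 changed sign without a call. Genes called in level numbered 369 (363 higher, 6 lower) and were 976 with DESeq2's Wald test (820 and 156), 60 with spike-in scaling (60 and 0), 712 with a trend on transcript length and GC content removed (499 and 213), and 4 to 1892 when 1 library was left out. For fraction new, 543 genes (23 and 520) became 254 from reads with at least 2 conversions, 874 (126 and 748) after centering on the library median, 312 with at least 50 reads, 241 with at least 500 reads and 108 to 2565 without 1 library. Without 1 library, labeled reads gave 15 to 1797 genes (96 with all) and unlabeled reads 275 to 1848 (794 with all). The s4U comparison, at 0 genes, gave 2 without a count filter, 25 with DESeq2 and 0 to 41 without 1 library, and the comparison of emetine effects gave 6 with DESeq2. The cause of these shifts was not tested.

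With spike-in scaling the log2 changes in level were 0.64 for TUG1, 0.42 for KCNQ1OT1, 0.51 for MIR17HG and 0.26 for DANCR, and with the length and GC trend removed that of MALAT1 was −0.17. Leaving out 1 library gave level changes of −0.15 to 0.28 for MALAT1 and −0.11 to 0.027 for TUG1, fraction new changes (logit) of −0.084 to 0.18 for KCNQ1OT1, unlabeled changes of −0.23 to 0.16 for MALAT1 and −0.051 to 0.12 for TUG1, and s4U differences of −0.16 to 0.0030 for NEAT1, −0.12 to 0.20 for MALAT1, −0.55 to 0.0055 for MIR17HG and −0.14 to 0.064 for DANCR. MIR17HG reached the upper limit of the estimate from 2 conversions in all 6 libraries, which then gave no value. With the background rate taken from the gene's own reads, the fraction new in untreated cells moved by less than the SD between libraries for all 6 members.

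Untreated and emetine libraries share replicate numbers, and deviations of same-numbered libraries correlated at 0.07, −0.02 and −0.18 in level. With 3 libraries per group, this cannot settle whether the numbers pair them. In both groups replicate 2 had the most T positions per read in NEAT1 (55.7 untreated, 51.9 with emetine), as in the other members. With the replicate number as a block, 78 genes were called in level and 358 in unlabeled reads, and the s4U differences were 0.049 for NEAT1, −0.16 for MALAT1 and 0.025 for DANCR. With the block and the length and GC trend removed, the level change of MALAT1 was −0.16. No call on a member changed under the block. KCNQ1OT1, at 223 to 314 reads per library, had the least depth of the 6.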
